A study of Mus musculus with 10 samples.

Results

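The TREM receptor cluster of the mouse was followed in microglia that carried 0, 1 or 2 intact copies of Trem2, one of its genes. Its 7 genes, Trem2, Trem1, Trem3, Treml4, Treml2, Treml1 and B430306N03Rik, were taken by name from the 24033 named genes of each library, and 6 of them were among the 13621 genes that passed a filter on low values, since Trem3 did not. Microglia, the resident macrophages of the brain, had been pulled from C57BL/6 mice aged 3 to 5 months with beads that bind CD11b, a surface integrin of myeloid cells. The groups were 3 knockout libraries (Trem2-/-; library 6 from a female, libraries 9 and 12 from males), 3 heterozygous libraries (Trem2+/-; 5 and 11 female, 8 male) and 4 wild-type libraries (Trem2+/+; 1 and 10 female, 4 and 7 male). The sources used here do not say which part of Trem2 the allele removes, nor whether a library came from 1 mouse or several, so each p-value reflects spread among libraries that may be technical.

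The genes encode single-pass membrane receptors with an immunoglobulin-like domain outside the cell. Trem2, Trem1, Trem3 and, in the mouse, Treml4 have short tails and signal through the adaptor DAP12 (gene Tyrobp), whose phosphorylated motif recruits the kinase Syk. Treml1 has a longer tail with an inhibitory tyrosine motif of its own. In the brain Trem2 is known as the microglial receptor for lipids, lipoproteins and debris, and loss-of-function variants of its human orthologue raise the risk of dementia. Trem1 is an amplifier of inflammation in neutrophils and monocytes.

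All 7 genes lie on the plus strand of chromosome 17 within 134.4 kb (GRCm38, GENCODE M21). The order is Trem1 (start 48232768, end 48246924), Trem3 (48247777 to 48258841), Treml4 (48264295 to 48275360), Treml2 (48299498 to 48312533), B430306N03Rik (48316141 to 48327024), Trem2 (48346401 to 48354147) and Treml1 (48359916 to 48367176). The closest neighbours are Trem1 and Trem3, with 852 bases between them. Treml1 starts 5768 bases past the end of Trem2, and B430306N03Rik ends 19376 bases before its start. None of the 21 pairs of genes shared a run of 31 bases between their annotated transcripts. Trem1 overlaps an annotated gene on the opposite strand (AC241601.2), and strand-specific counting is not stated in the sources used here.

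RefSeq's promoter table held 5 of the 7 genes. The 250 bases before the start are shown for Trem2 and for its neighbours on either side. Every knockout library lay above every wild-type library for both neighbours, and also for Treml4, as for 2.99% of all tested genes. RefSeq's start of B430306N03Rik lies inside the GENCODE span given above. Capitals mark matches, on either strand, to the PU box GAGGAA (a core that binds the myeloid factor PU.1), to the E-box CACGTG and to the AP-1 letters TGANTCA. No match overlapped another.
B430306N03Rik (GRCm38.p6, chr17:48315912-48316161, plus strand): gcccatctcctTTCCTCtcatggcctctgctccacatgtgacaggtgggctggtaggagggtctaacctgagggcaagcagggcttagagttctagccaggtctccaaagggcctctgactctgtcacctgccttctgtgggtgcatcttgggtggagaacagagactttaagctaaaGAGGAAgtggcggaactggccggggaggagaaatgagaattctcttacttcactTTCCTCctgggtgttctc
Trem2 (GRCm38.p6, chr17:48346151-48346400, plus strand): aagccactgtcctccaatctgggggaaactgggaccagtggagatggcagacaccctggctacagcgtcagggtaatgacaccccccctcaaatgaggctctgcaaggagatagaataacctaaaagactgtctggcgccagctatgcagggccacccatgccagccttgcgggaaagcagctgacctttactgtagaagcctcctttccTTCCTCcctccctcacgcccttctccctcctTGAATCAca
Treml1 (GRCm38.p6, chr17:48359666-48359915, plus strand): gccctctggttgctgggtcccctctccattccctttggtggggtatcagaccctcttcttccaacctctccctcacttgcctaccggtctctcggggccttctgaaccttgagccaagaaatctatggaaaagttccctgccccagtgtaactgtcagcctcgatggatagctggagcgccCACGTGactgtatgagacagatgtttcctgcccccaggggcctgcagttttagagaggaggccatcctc
B430306N03Rik held 3 PU box matches, Trem2 held 1 and Treml1 held none in this window. Treml4 held 2 and Trem1 held 1. At least 1 PU box match occurred in 23.3% of 32851 such windows, and how many windows held 2 or 3 was not counted. The E-box, which Treml1 held, occurred in 6.02% and the AP-1 letters, which Trem2 held, in 6.75%. A match is a string of letters and was not tested as a binding site.

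Libraries 9 to 12 were read more deeply, with 37144478 to 45095407 reads on genes, than libraries 1 to 8, with 17632262 to 22530170 reads, and each genotype had libraries of both depths. The summed RPKM (reads scaled by gene length and library size) of 10 microglial markers such as P2ry12 and Tmem119 lay at 9490 to 11300 in knockout libraries, 8990 to 10800 in heterozygous libraries and 9530 to 11200 in wild-type libraries, and none of these markers was at 0. Knockout library 6 stood apart in neutrophil markers, whose sum (12 of 13 listed genes were in the files) was 2300 RPKM there, 372 and 382 in knockout libraries 9 and 12, 144 to 358 in heterozygous libraries and 104 to 224 in wild-type libraries. Values without library 6 are therefore given beside the results it moves most. It was also the only knockout library from a female and the only one of lower depth. Leaving it out thus changes sex and depth as well, and these cannot be told apart.

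In wild-type microglia the cluster was read almost entirely from Trem2. Trem2 supplied 49.6%, 57.5% and 58.7% of the summed RPKM of the 7 genes in knockout libraries 6, 9 and 12, 86.8% to 87.5% in heterozygous libraries, and 90.8% to 92.8% in wild-type libraries. On this length-scaled measure 1.39% of the tested genes had a higher wild-type mean than Trem2. The wild-type means then followed in the order Treml2 (7.67 RPKM), B430306N03Rik (4.73), Treml1 (2.96), Trem1 (0.912), Treml4 (0.492) and Trem3 (0.156). The wild-type ranges of B430306N03Rik and Treml1, of Trem1 and Treml4, and of Treml4 and Trem3 overlapped. The genes of a pair were read in the same libraries, and the difference between them was not tested. In knockout libraries the order was Trem2 (24.5 RPKM), B430306N03Rik (7.56), Treml1 (5.08), Trem1 (2.55), Treml2 (2.46), Treml4 (1.85) and Trem3 (0.962). The place of Trem1 in that order came from library 6, and in libraries 9 and 12 alone Treml2 (1.74 RPKM) and Treml4 (1.52) averaged more than Trem1 (0.964).

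**Figure D1:**
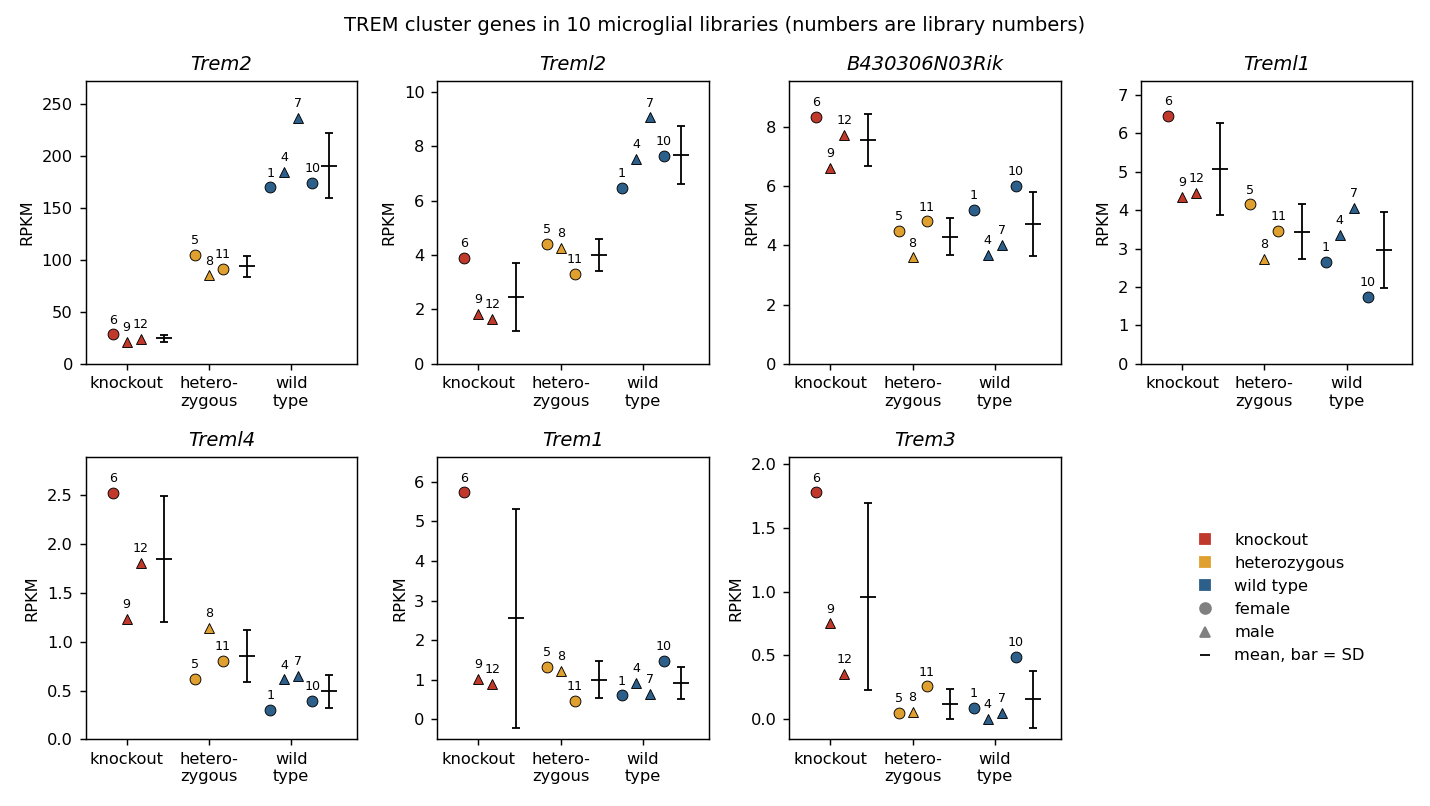
RPKM of each cluster gene (y axis, linear) in every library, grouped by genotype, with library numbers, circles for female and triangles for male libraries, and the mean with SD beside each group (n = 3, 3 and 4). Trem2 and Treml2 are highest in the 4 wild-type libraries, while B430306N03Rik, Treml1 and Treml4 are highest in the 3 knockout libraries.

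Trem2 was the targeted gene and tracked its copy number. It stood at 28.3, 21.4 and 23.9 RPKM in knockout libraries 6, 9 and 12, at 105, 85.2 and 91.7 RPKM in heterozygous libraries 5, 8 and 11, and at 170, 185, 237 and 174 RPKM in wild-type libraries 1, 4, 7 and 10. The 3 genotypes did not overlap. In knockout libraries 627 to 1103 reads were still assigned to Trem2, so counting error alone was small there (28.3 RPKM in library 6, exact Poisson 95% interval 26.2 to 30.6, which covers counting error only). Trem2 fell in knockout libraries relative to wild type (log2 -2.93 on the log2(RPKM + 0.5) scale, SE 0.14, limma adjusted p = 5.45e-06) and relative to heterozygous libraries (log2 -1.91, SE 0.15, limma adjusted p = 0.00127). Heterozygous libraries differed from wild type by log2 -1.02 (SE 0.14, limma adjusted p = 0.238; unadjusted p = 1.75e-05, the smallest of 13621 genes). That comparison passed the threshold with limma-voom on recovered reads (log2 -1.01, adjusted p = 0.0439; adjusted p over the alternatives ran from 0.0439 to 1). The heterozygous mean, 93.9 RPKM, was 86.9% of the arithmetic midpoint of the knockout and wild-type means (108 RPKM). On the log scale it was above the midpoint by 0.44 (SE 0.13, limma adjusted p = 0.999).

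Treml2, a receptor of B cells, macrophages and neutrophils whose start lies at -46.9 kb from that of Trem2, was the other cluster gene that was lower with fewer Trem2 copies. It stood at 3.9, 1.83 and 1.64 RPKM in knockout libraries 6, 9 and 12, at 4.40, 4.25 and 3.31 RPKM in heterozygous libraries 5, 8 and 11, and at 6.46, 7.52, 9.06 and 7.63 RPKM in wild-type libraries 1, 4, 7 and 10. Every knockout and every heterozygous library lay below every wild-type library, and knockout library 6 lay inside the heterozygous range. The group means were 2.46 ± 1.26 RPKM in knockout (SD, n = 3), 3.99 ± 0.590 RPKM in heterozygous libraries (SD, n = 3) and 7.67 ± 1.07 RPKM in wild type (SD, n = 4), which put knockout at 32.1% and heterozygous at 52.0% of wild type. Knockout against wild type gave log2 -1.51 (SE 0.24, limma adjusted p = 0.433), and Treml2 had the smallest unadjusted p after Trem2. The difference passed the threshold without knockout library 6 (log2 -1.95, limma adjusted p = 0.00787) and by limma-voom on recovered reads (log2 -1.85, adjusted p = 0.0163), and its adjusted p ranged from 0.00787 to 0.993 over all alternatives. Heterozygous against wild type gave log2 -0.89 (SE 0.24, limma adjusted p = 1.00), and knockout against heterozygous gave log2 -0.62 (95% interval -1.2 to -0.04, limma adjusted p = 0.999), or log2 -1.12 without library 6 (limma adjusted p = 0.848). Among the 4 deeper libraries Treml2 averaged 1.74 RPKM in knockout, 3.31 in heterozygous and 7.63 in wild type, and among the 6 shallower ones 3.9, 4.33 and 7.68 RPKM in the same order of genotypes. Of the 5 B cell markers in the files, Cd79b passed the filter, Pax5 was at 0 in all libraries, and the summed level was 3.64 to 6.46 RPKM in knockout libraries, 3.25 to 7.04 in heterozygous libraries and 3.88 to 7.05 in wild-type libraries. In bulk RNA of this kind, fewer cells of a type and less RNA per cell cannot be told apart.

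B430306N03Rik, for which RefSeq lists the synonym Treml6, was higher in knockout libraries and near wild type in heterozygous ones. It stood at 8.35, 6.61 and 7.73 RPKM in knockout libraries 6, 9 and 12, at 4.48, 3.59 and 4.81 RPKM in heterozygous libraries 5, 8 and 11, and at 5.20, 3.69, 4.01 and 6.02 RPKM in wild-type libraries 1, 4, 7 and 10. The lowest knockout library lay above the highest wild-type and the highest heterozygous library, while heterozygous and wild-type libraries overlapped. Knockout reached 160% of the wild-type mean (log2 0.70, SE 0.14, limma adjusted p = 0.904) and heterozygous libraries 90.7% of it (log2 -0.17, SE 0.14, limma adjusted p = 1.00). Against heterozygous libraries the knockout difference was log2 0.87 (SE 0.15, limma adjusted p = 0.781), and heterozygous libraries lay below the log midpoint of knockout and wild type by log2 -0.52 (SE 0.13, limma adjusted p = 0.999). None of these passed the threshold over all genes. The knockout difference was as large without library 6 (log2 0.78). In the 4 deeper libraries knockout was at 119% of the single wild-type library, and in the 6 shallower ones the single knockout library was at 194% of wild type. Treml2 and B430306N03Rik lie 3607 bases apart, and the ratio of B430306N03Rik to Treml2 separated the genotypes, at 2.14, 3.62 and 4.70 in knockout libraries 6, 9 and 12, 0.844 to 1.45 in heterozygous libraries and 0.442 to 0.806 in wild-type libraries. Since it divides a gene higher in knockout libraries by one lower there, the ratio adds no evidence to their own values. It was not compared with other pairs of genes.

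Treml1, known from platelet granules and megakaryocytes, was higher in knockout libraries. It stood at 6.46, 4.34 and 4.44 RPKM in knockout libraries 6, 9 and 12, at 4.15, 2.72 and 3.45 RPKM in heterozygous libraries 5, 8 and 11, and at 2.66, 3.36, 4.07 and 1.74 RPKM in wild-type libraries 1, 4, 7 and 10. Knockout did not overlap the other genotypes, but the gap to wild-type library 7 was small. Knockout reached 172% of the wild-type mean (log2 0.72, SE 0.26, limma adjusted p = 0.942), and the difference was log2 0.43 without library 6 (limma adjusted p = 0.824). Heterozygous was at 116% of wild type (log2 0.22, 95% interval -0.35 to 0.79), a difference whose sign turned without wild-type library 10 (log2 -0.03). Treml1 rested on 60 to 223 reads a library. Of 9 platelet and megakaryocyte markers, 4 passed the filter, and the summed level of all 9 was 12.5 to 21.1 RPKM in knockout libraries, 12.3 to 16.8 in heterozygous libraries and 12.5 to 15.1 in wild-type libraries, most of it Gp9 (13 ± 4.12 RPKM in knockout and 10.3 ± 1.67 in wild type). Itga2b, the platelet integrin subunit, was at most 0.374 RPKM, and Gp1bb, a subunit of the platelet receptor for von Willebrand factor, was at 0 in heterozygous libraries 5 and 8 and in wild-type libraries 4 and 7. Their part in the Treml1 values was not tested.

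**Figure D2:**
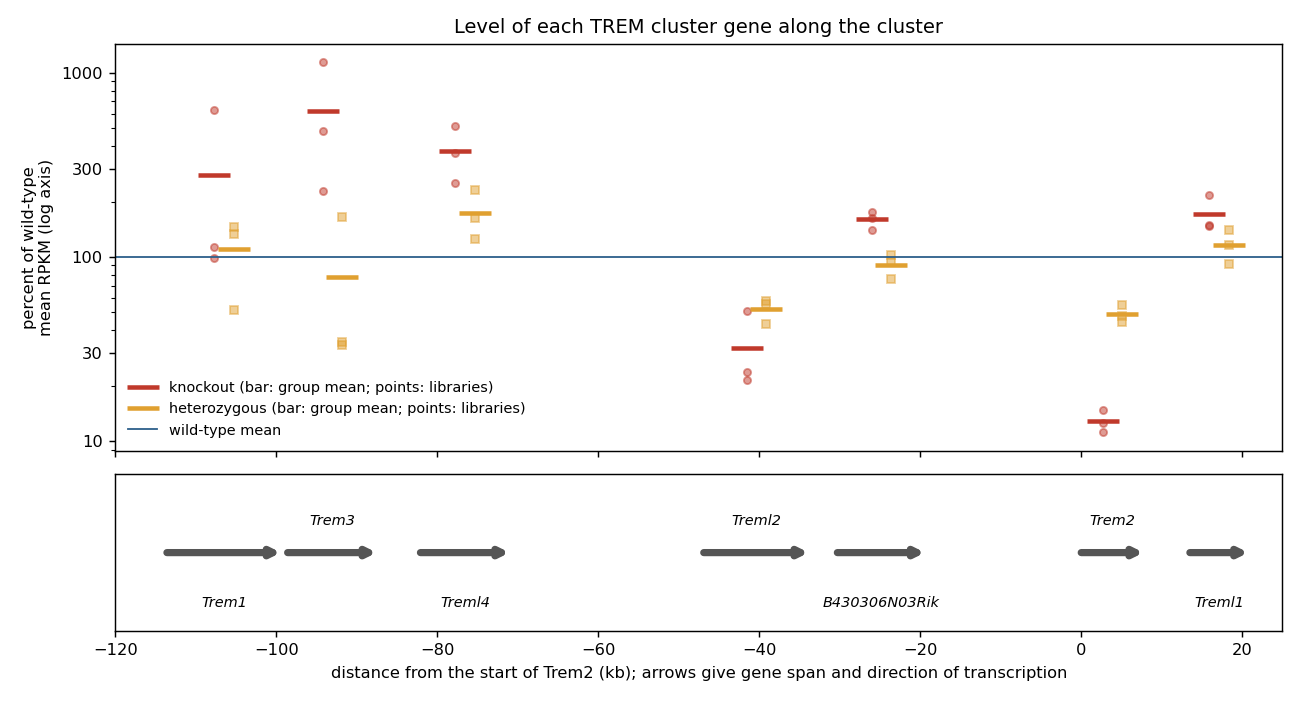
Upper panel, level of each gene as percent of its wild-type mean RPKM (log axis) for knockout and heterozygous libraries, with points for libraries and bars for group means; lower panel, gene spans against distance from the start of Trem2 in kb. Treml2 at 32.1% and Trem2 at 12.8% lie below the wild-type line in the knockout, with B430306N03Rik at 160% between them; a Trem3 wild-type mean of 0.156 RPKM makes its percentages unstable.

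Treml4, Trem1 and Trem3, at the far end of the cluster from Treml1, were scarce. They had their highest values in knockout library 6, the library with the most neutrophil transcripts. So had Treml1 (6.46 RPKM) and B430306N03Rik (8.35 RPKM), and library 6 was also the highest knockout library for Trem2 and Treml2. Treml4, a receptor of mouse monocytes, macrophages and dendritic cells, stood at 2.52, 1.23 and 1.81 RPKM in knockout libraries 6, 9 and 12, at 0.620, 1.14 and 0.802 RPKM in heterozygous libraries 5, 8 and 11, and at 0.305, 0.615, 0.652 and 0.394 RPKM in wild-type libraries 1, 4, 7 and 10. The 3 knockout libraries lay above all others. Knockout was at 377% of wild type (log2 difference 1.2 with SE 0.26, limma adjusted p = 0.913), and at 309% without library 6 (log2 0.82, limma adjusted p = 0.731). Heterozygous libraries reached 174% of the wild-type mean (log2 0.47, SE 0.26, limma adjusted p = 1.00). These levels rest on 82 to 127 reads in knockout libraries, 20 to 52 in heterozygous libraries and 12 to 31 in wild-type libraries.

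Trem1 was high in a single library. It stood at 5.73 RPKM in knockout library 6, at 1.03 and 0.896 RPKM in knockout libraries 9 and 12, at 1.32, 1.22 and 0.472 RPKM in heterozygous libraries 5, 8 and 11, and at 0.602, 0.919, 0.645 and 1.48 RPKM in wild-type libraries 1, 4, 7 and 10. Apart from library 6 the genotypes overlapped. The difference between knockout and wild type was log2 0.89 (SE 0.45, limma adjusted p = 0.977) with all libraries and log2 0.08 (limma adjusted p = 0.980) without library 6.

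Trem3, which encodes a working receptor in the mouse, lay below the filter. It had 36, 30 and 15 reads in knockout libraries 6, 9 and 12 (1.78, 0.751 and 0.356 RPKM), 1, 1 and 10 reads in heterozygous libraries 5, 8 and 11 (0.0516, 0.0541 and 0.257 RPKM), and 2, 0, 1 and 23 reads in wild-type libraries 1, 4, 7 and 10 (0.0847, 0, 0.0517 and 0.487 RPKM). A count of 0 in wild-type library 4 allows up to 0.140 RPKM (3 reads). Knockout lay above heterozygous in every library but overlapped wild type through library 10. Within the 4 deeper libraries, knockout averaged 0.553 RPKM and the single wild-type library was at 0.487 RPKM. Without the filter, knockout against wild type gave log2 1.19 (SE 0.25, limma adjusted p = 0.943). The knockout mean was 618% of wild type with library 6 and 355% without it.

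**Figure D3:**
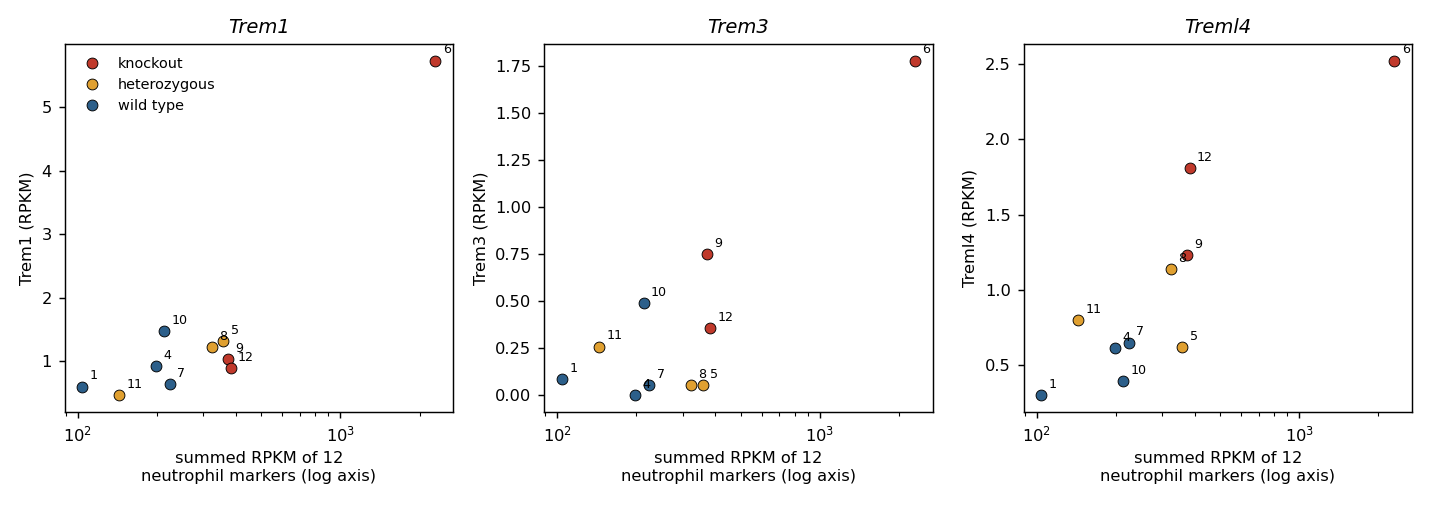
RPKM of Trem1, Trem3 and Treml4 (y axes, linear) against the summed RPKM of 12 neutrophil markers (x axis, log) in the 10 libraries, coloured by genotype and labelled by library number. Knockout library 6 lies alone at 2300 RPKM of neutrophil markers and is highest for all 3 genes. Among the other libraries Treml4 is highest in knockout libraries 9 and 12, which also have the highest neutrophil sums of those libraries (372 and 382 RPKM).

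All 10 neutrophil markers that passed the filter were higher in knockout than in wild-type libraries by sign (median log2 2.04; 0 with a limma adjusted p under 0.05, 9 with an unadjusted p under 0.05). Elane was at 0 in wild-type libraries 1 and 4, and no marker was at 0 in a knockout library. Monocyte markers summed to 171 to 233 RPKM in knockout libraries, 168 to 252 in heterozygous libraries and 117 to 213 in wild-type libraries, with none of the 10 at 0 and Nr4a1 the largest part of each group's mean sum. Of the 9 monocyte markers that passed the filter, 7 were higher in knockout than in wild-type libraries by sign (median log2 0.32; 0 with a limma adjusted p under 0.05, 3 with an unadjusted p under 0.05). Those 3 were Chil3 (32.2 RPKM in knockout and 5.75 RPKM in wild type), Plac8 (2.15 and 0.621 RPKM) and Ly6c2 (2.44 and 0.759 RPKM). Their knockout libraries spread widely, from 9.64 to 76.6 RPKM for Chil3, 0.965 to 4.46 for Plac8 and 0.683 to 5.82 for Ly6c2. Wild-type libraries ran from 2.19 to 9.19, 0.311 to 1.37 and 0.487 to 0.997 RPKM in the same order of genes. Without library 6 the median was log2 1.01 over the 10 neutrophil markers and 0.35 over the 8 monocyte markers that then passed the filter. Of these, 5 neutrophil and 2 monocyte markers had an unadjusted p under 0.05 (limma), where 6.42% of all genes did. Dendritic cell markers summed to 21.1 to 42.6, 24.3 to 45.8 and 25.4 to 31.1 RPKM, and border macrophage markers to 87.8 to 153, 95.7 to 158 and 77.2 to 126 RPKM, in the same order of genotypes. What these cells contributed to Treml4, Trem1 and Trem3 was not tested.

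Over the whole cluster, Trem2 was the single gene of the 6 tested that passed in knockout against wild type, where 0.00734% of 13621 genes did (limma, adjusted p under 0.05). Its fall was fixed by the targeting. Trem2 is included in every count of lower cluster genes in this paragraph except against the midpoint, where it was higher. Those counts therefore say less about the untargeted genes. At an unadjusted p under 0.05, 5 of 6 differed, 3 of them higher and 2 lower, where 5.13% of all genes did (3.32% higher and 1.81% lower). Without library 6 they were 4 of 6, 2 higher and 2 lower, since Treml1 was no longer among them, where 6.42% of all genes did. Knockout and wild-type libraries did not overlap in 5 of the 6, 3 higher and 2 lower, against 4.59% of all genes (2.99% higher and 1.6% lower). In heterozygous against wild type 0 passed, of the cluster or of all genes (0%, limma; 1 gene, Trem2, by limma-voom), and 2 of 6, Trem2 and Treml2, had an unadjusted p under 0.05, both lower, where 2.75% of genes did (1.4% higher and 1.35% lower). Trem2 and Treml2 were also the genes without overlap, against 4.53% of all genes (2.23% higher and 2.3% lower). In knockout against heterozygous 1 of 6 passed (background 0.00734%), 4 had an unadjusted p under 0.05, 2 higher and 2 lower (background 3.35%, with 2.2% higher and 1.15% lower; without library 6, 3 of 6, since Treml4 stood at log2 0.30 there and 0.74 with it, against a background of 3.65%), and 4 did not overlap, 3 higher and 1 lower (background 7.42%, with 4.4% higher and 3.02% lower). Against the log midpoint 0 of 6 passed (background 0%, limma). B430306N03Rik, lower, and Trem2, higher, had an unadjusted p under 0.05, where 2.5% of genes did (1.07% higher and 1.43% lower). The direction for Trem2 depends on the scale, since its heterozygous mean was 86.9% of the arithmetic midpoint. Knockout against wild type and heterozygous against wild type share their wild-type libraries. The median over the 6 genes was log2 0.71 in knockout against wild type, where it was 0.03 over all genes, and -0.10 in heterozygous against wild type, where it was 0.00. Without library 6 the median in knockout against wild type was log2 0.26 over the 6 genes and 0.04 over all genes.

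**Figure D4:**
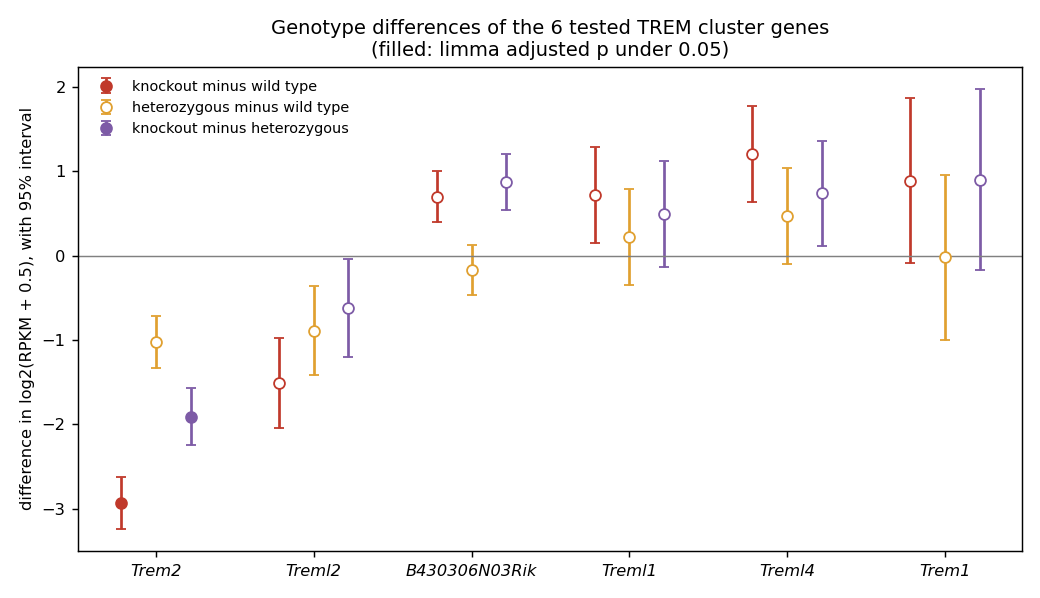
Differences in log2(RPKM + 0.5) for the 6 tested genes (y axis, points with 95% intervals from limma) in 3 comparisons; filled points have an adjusted p under 0.05. Only the Trem2 differences of the knockout are filled in this fit, and the knockout differences of the 4 genes at the right lie above 0, with intervals that include 0 for Trem1 and, against heterozygous libraries, for Treml1.

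Exact permutation tests of single genes on the absolute difference of group means gave p = 0.0286 in knockout against wild type for Trem2, Treml2 and Treml4, the smallest that 3 and 4 libraries allow, and p = 0.0571 for Treml1 and B430306N03Rik. Trem1 gave an exact p = 0.286 and Trem3 an exact p = 0.0857. In heterozygous against wild type Trem2 and Treml2 again gave an exact p = 0.0286, and Treml4 gave an exact p = 0.114. Comparisons of 3 with 3 libraries cannot go below an exact p of 0.1. These p-values are not adjusted over the genes.

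Sex entered the fit as a term, and B430306N03Rik was the cluster gene with the smallest unadjusted p for it. In each genotype every male library lay below every female one. The values were 6.61 and 7.73 against 8.35 RPKM in knockout, where library 6 was the only female one. They were 3.59 against 4.48 and 4.81 RPKM in heterozygous, and 3.69 and 4.01 against 5.20 and 6.02 RPKM in wild-type libraries. The difference, male minus female, was log2 -0.36 (SE 0.12, limma adjusted p = 0.919; unadjusted p = 0.00944, where 5.34% of genes had one under 0.05, 3.51% with the lower level in males). No cluster gene passed for sex, while 6 of all genes did (0.044%). Trem2 differed by log2 -0.03 between males and females (95% interval -0.29 to 0.24).

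None of the adaptors and signalling genes that the receptors share passed the test. Of 25 genes listed, 24 were tested, and 0 passed in either direction in knockout or heterozygous libraries against wild type (limma; 0 also had an unadjusted p under 0.05). Their median was log2 0.02 in knockout and -0.02 in heterozygous libraries. Tyrobp, which encodes DAP12, stood at 680 ± 93.4 RPKM in knockout (SD, n = 3), 693 ± 46.8 RPKM in heterozygous libraries (SD, n = 3) and 622 ± 63.6 RPKM in wild type (SD, n = 4; knockout log2 0.13, SE 0.13). Hcst, which encodes the related adaptor DAP10, stood at 5.4 ± 1.13, 5.70 ± 2.64 and 3.33 ± 1.44 RPKM in the same order, with the largest knockout difference of the list (log2 0.72, SE 0.36, limma adjusted p = 0.977). Syk, the kinase recruited to DAP12, was at log2 0.07 (SE 0.15) and Plcg2, a phospholipase downstream of it, at log2 -0.10 (SE 0.10) in knockout libraries.

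The genes with the most similar pattern over the 10 libraries, by Pearson's r of log2(RPKM + 0.5) and with no test, shared the libraries and their depth. For Trem2 they were Pdgfa, a growth factor (r = 0.889; 38.0 RPKM in knockout, 42.5 in heterozygous and 49.9 in wild type), and the olfactory receptor gene Olfr112 (r = 0.871; 0.0930, 0.675 and 0.732 RPKM). Treml2 was followed by Cd274, which encodes the checkpoint ligand PD-L1 (r = 0.912; 25, 25.9 and 32.8 RPKM in the same order), and Siglec5 (r = 0.907). For Trem1 they were Gapt (r = 0.958) and the C-type lectin receptor Clec4e (r = 0.948; 2.96 RPKM in knockout, 2.05 in heterozygous and 1.73 in wild type). Treml4 was followed by Pcdhb17 (r = 0.904) and the neutrophil granule gene Ngp (r = 0.902; 118, 28.0 and 19.4 RPKM). For Treml1 they were Med6 (r = 0.953) and Mcmbp (r = 0.883), and for B430306N03Rik Pigg (r = 0.958) and the deacetylase Hdac8 (r = 0.954; 3.71, 2.35 and 2.32 RPKM).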

How the data were processed

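Libraries were made from total RNA with the Ovation kit and run on a HiSeq4000, per the labels. The authors deposited linear RPKM values, 1 table per library. The submitters' processing notes list STAR, HTSeq, edgeR, limma and mm10, without roles, versions or annotation. Of 24060 names, 27 that a spreadsheet had turned into dates were left out of the tests. For all 20008 genes above 0 the values came out as whole reads (within 0.0005 reads, or a relative 5e-09 for larger counts), so reads were recovered, 17632262 to 45095407 per library. The main fit used the deposited RPKM. The planned edgeR test on recovered reads was not run, and limma-voom was the alternative on those reads. limma 3.58.1 in R 4.3.3, with a mean-variance trend, was fitted to log2(RPKM + 0.5) of genes with at least 0.5 RPKM in 3 libraries, over all 10 libraries with genotype and sex as terms. P-values are two-sided and Benjamini-Hochberg adjusted over 13621 genes. Fold changes on this scale understate low genes. Single genes were compared by exact permutation tests (scipy 1.17.1). On simulated reads with 200 changed genes among 13441, knockout against wild type recovered 82% of changes of log2 1 and 99% of changes of log2 2. The simulation gave every gene the same spread, took the changed genes from those with more reads, and held no library like knockout library 6. These shares therefore do not say how often changes of scarce or variable cluster genes would be found. Markers and signalling genes came from lists. The members and lists were chosen with earlier results of these data known. Alternatives were other pseudocounts, filters and scalings, no sex term, robust variances, limma-voom on recovered reads, each library left out, and, chosen after the read totals were seen, a term for depth of sequencing, which set libraries 9 to 12 apart, and medians and counts without knockout library 6. The named genes were all members, Tyrobp, Hcst, Syk and Plcg2 of the signalling list, and the 2 genes closest in pattern to each tested member, without clone, predicted, microRNA and snoRNA names. The level of 1 listed marker is not reported here.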

Additional observations from a re-analysis of the deposited data

Results flagged for a closer look

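For Treml1, heterozygous and wild-type libraries lay in opposite order in females and males, with 1 heterozygous library from a male. Female heterozygous libraries averaged 3.80 RPKM, and both lay above both female wild-type libraries, while the male heterozygous library, at 2.72 RPKM, lay below both male wild-type libraries. The difference between the sexes was not tested. The summed dendritic cell markers were 25.4 RPKM in wild-type library 1, below the other 3 wild-type libraries, which lay within 30.5 to 31.1 RPKM. The sums spread more widely in knockout (21.1 to 42.6 RPKM) and heterozygous libraries (24.3 to 45.8 RPKM). Cd209a made up most of the wild-type mean sum (26.0 RPKM). Chance flags about 1 in 20 groups of this size.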

How the results depend on the processing

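Of 564 recomputed differences of single cluster genes, 533 kept their direction and their side of the threshold, 3 passed it newly and 28 changed sign. In knockout against wild type, 2 cluster genes were called with limma-voom on recovered reads, and 1 to 2 with a library left out. Over all genes 2 were called with the depth term, 2 with limma-voom and 1 to 3 with a library left out. In heterozygous against wild type limma-voom called 1 cluster gene and 1 of all genes. Leaving out knockout library 6 gave the higher counts (Trem2 and Treml2 of the cluster). Sign changes were limited to differences not called under any of these settings, and the cause was not tested. For Trem1, heterozygous against wild type gave log2 0.03 with the depth term, 0.08 without the sex term and -0.53 to 0.37 with a library left out. Knockout against heterozygous gave -0.000307 to 1.48 for it. Heterozygous against wild type gave -0.03 to 0.45 for Treml1. Against the midpoint, leaving out a library gave -1 to 0.04 for Trem1, -0.31 to 0.11 for Treml4, -0.29 to 0.15 for Treml2 and -0.29 to 0.11 for Treml1. Male against female gave 0.08 with limma-voom, 0.00506 with median-ratio scaling and -0.14 to 0.09 with a library left out for Trem2, -0.96 to 0.02 for Trem1, -0.26 to 0.19 for Treml2, and -0.01 with the depth term and -0.17 to 0.23 with a library left out for Treml1. edgeR's quasi-likelihood test on recovered reads was not run. No paired analysis was possible because the genotypes share no library number. Reads limit Trem3 (0 to 36 a library) and Treml4 (12 to 127) most.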
